A study of Oryza sativa with 9 samples.

Results

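Root transcriptomes of the rice cultivar SR86 grown in salt water (SW) were compared with those of the same cultivar grown in fresh water (FW), over every nuclear locus whose FPKM averaged 0.5 or more across the 6 libraries of the comparison. FPKM, the fragments of a transcript scaled to its length and to the total of the library, is the unit of the deposited values, and a locus is a gene model numbered along its chromosome. Of 57624 nuclear loci, 23581 passed this minimum. Among these, 21595 averaged 0.5 FPKM or more in both groups, 1396 only in SW and 590 only in FW, and the last 2 sets entered the comparison only through the group in which they were high. The 350 loci just inside the minimum, with means of 0.5 to 0.55 FPKM, had a median log2 fold change of 0.29, and the 312 loci just outside it, from 0.45 FPKM, had 0.24.

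The libraries SR86 SW1 to SW3 were of roots of the cultivar labelled Sea_Rice_86 in salt water. They were set against SR86 FW1 to FW3, of roots of the same cultivar in fresh water. Values of R1 FW1 to FW3, roots of the common rice labelled Normal_Rice_R1 in fresh water, are given beside them and entered no test. The labels call both cultivars japonica, while the study places SR86 with indica rice and describes R1 as a cross of both subspecies. No other treatment is named. The labels say salt water where the study says sea water, in which the plants were grown from planting, and roots were harvested 1 month after planting in 3 biological replicates per group. The salt content of the water and the number of plants in a library were not given in the sources used here. SR86 was domesticated from wild rice of saline coastal land, so both groups compared are of 1 salt-tolerant genotype, and R1 roots in salt water were not analysed here.

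Salt in the water around a root makes water harder to take up, and brings in sodium, which competes with potassium. Plant roots are known to respond through abscisic acid, the hormone of water deficit, through protective proteins of the LEA (late embryogenesis abundant) class, through proton pumps that power the transport of sodium out of the cell or into the vacuole, through enzymes that make and remove reactive oxygen, and through changes in cell division and in the growing cell wall. The loci are described below by what their annotation says they encode. The files give no genome positions, and the digits after LOC_Os in a locus name give its chromosome.

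The libraries differed in depth and in spread. Relative to SR86 FW1, the depth read from the smallest steps of the values was 1.99, 1.82 and 2.63 in SR86 SW1 to SW3, against 1.00, 1.42 and 1.18 in SR86 FW1 to FW3, and 1.04, 1.72 and 1.35 in R1 FW1 to FW3. Of the 23581 loci, 208 to 234 were listed at 0 in an SW library, against 281 to 421 in an SR86 FW library. The correlation of log2 values across loci, which are not independent replicates, was 0.941 to 0.965 between SW libraries, against 0.925 to 0.956 between SR86 FW libraries and 0.985 to 0.995 between R1 FW libraries. Replicates of SR86 thus spread more widely than those of R1. Between SW and SR86 FW libraries it was 0.857 to 0.918. With the R1 libraries SW3 had 0.906 to 0.909, against 0.857 to 0.888 for SW1 and SW2, and SR86 FW3 had 0.921 to 0.930, against 0.871 to 0.899 for FW1 and FW2, so FW3 was about as near to R1 as to FW1 (0.925). In roots, a lower value for the genes of a cell type can come from fewer such cells or from less RNA per cell, and these cannot be told apart in bulk libraries.

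A call required an adjusted p under 0.05 together with a change of 2-fold or more on log2(FPKM + 0.5), a scale that understates the change of low loci. Of the 23581 loci, 2989 were called, 12.7%, of which 1996 were higher in SW (8.46%) and 993 lower (4.21%), and the SW and SR86 FW libraries did not overlap in any of the 2989. Without overlap were 44.9% of all loci tested. Changes of over 4-fold were called in 414 loci higher and 200 lower in SW. The median of all loci was 0.18 on the log2 scale with the deposited scaling, 0.08 with median-ratio size factors and 0.01 after quantile normalization. The split between higher and lower calls moved with it, since 66.8% of the calls were higher with the deposited scaling, 58.2% with size factors and 46.0% after quantile normalization. The medians of gene groups below are to be read beside that of all loci. Summed over all 57624 nuclear loci, levels were 640720, 646375 and 621627 FPKM in SW. They were 722330, 717760 and 703392 FPKM in SR86 FW, so the SW mean was 0.89 times that of SR86 FW. The sums of gene groups are to be read beside these totals.

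The number of calls depended on single libraries. It was 58 without SR86 SW1, 592 without SW2 and 3123 without SW3, against 917 without FW1, 308 without FW2 and 3756 without FW3. Among loci called higher, SW3 was the SW library nearest to FW in 1088, SW2 in 699 and SW1 in 209, and FW3 was the FW library nearest to SW in 1133, FW1 in 471 and FW2 in 392. Only 52 loci were called in the fit of all 6 libraries and again in each of the 6 fits of 5 libraries. Every other call named below was lost in at least 1 of the smaller fits. R1 was compared with the 2 groups only as a description. The R1 FW mean was nearer to the mean of SR86 FW than to that of SW in 1312 of the 1996 loci called higher, and in 476 of the 993 called lower.

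Annotations were taken from 4 supplementary lists of genes listed as changed in a comparison of these samples, so they cover 5958 of the 23581 loci and favour loci that moved. Of the 4 lists, 2 were held only in part, 1 of them that of loci higher in SW, so a locus with no annotation here can still stand in a list. Of the 5958, 39.9% were called, 24.4% higher and 15.5% lower, against 3.46% of the 17623 loci with no annotation. The share of a gene group that was called is therefore not independent evidence of its direction. Loci were sorted into 39 groups by their annotation. Families with a list of their own in the supplement were left out, which removed 210 loci of 8 families. The groups held 1511 loci, of which 369 were called higher and 202 lower.

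**Figure D1:**
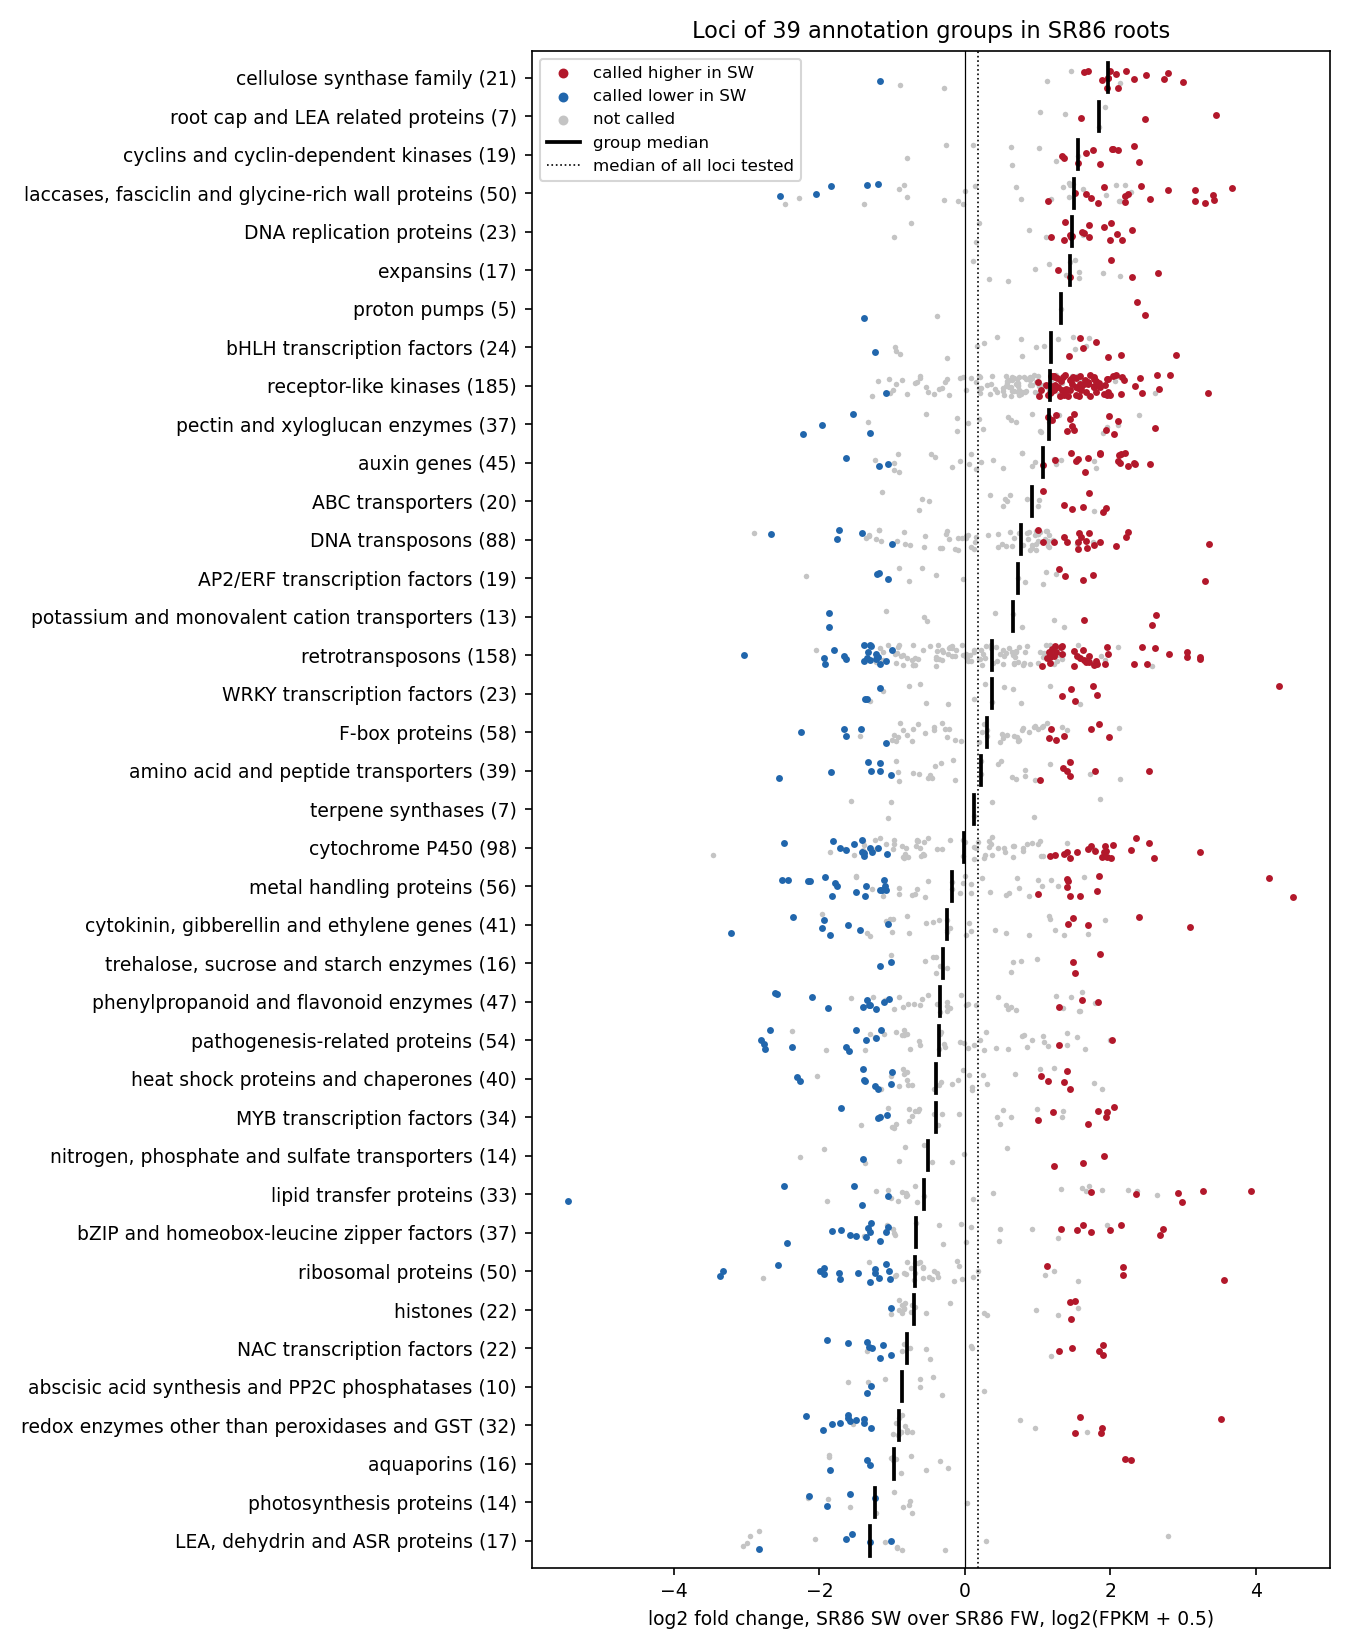
Log2 fold change of SW over SR86 FW for the loci of 39 annotation groups, ordered by their median; each point is a locus, red where called higher in SW, blue where called lower and grey where not called, with the group median as a bar and the median of all 23581 loci, 0.18, as a dotted line. The cellulose synthase family, 21 loci with a median of 1.97, stands at 1 end, and the LEA, dehydrin and ASR proteins, 17 loci with a median of -1.31, at the other.

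Changes also followed the length of transcripts, and the gene groups differ in length. A length relative to the median was obtained for 5936 annotated loci. Loci listed for the comparison of strains only were left after those found in the lists for water were set aside, and were chosen on the same SR86 FW libraries, so their values are a description. Of these, 5.61% were called, 5.51% higher and 0.0951% lower. As the list of loci higher in SW was held only in part, some such loci can remain here, and nothing is read from this split. The same limit holds for the trend by length in these loci and for medians with that trend removed. Sorted by length into 5 equal classes, the loci listed for strains only had a median log2 fold change of -0.20 in the shortest class, then 0.04, 0.15 and 0.33, and 0.62 in the longest class. Over all annotated loci the trend was steeper, at -0.85, -0.54, 0.06, 0.72 and 1.2, with 571 called higher and 38 lower in the longest class and 108 higher and 371 lower in the shortest. The trend of the loci listed for strains differed between libraries, since the median deviation of the longest class from the mean of the 6 libraries was 0.24, 0.21 and 0.45 in SW1 to SW3, against -0.50, -0.36 and -0.02 in SR86 FW1 to FW3. For each group below, the median after removal of the flatter trend, that of loci listed for strains only, stands beside the median as measured. The part of length in the results was not tested.

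**Figure D2:**
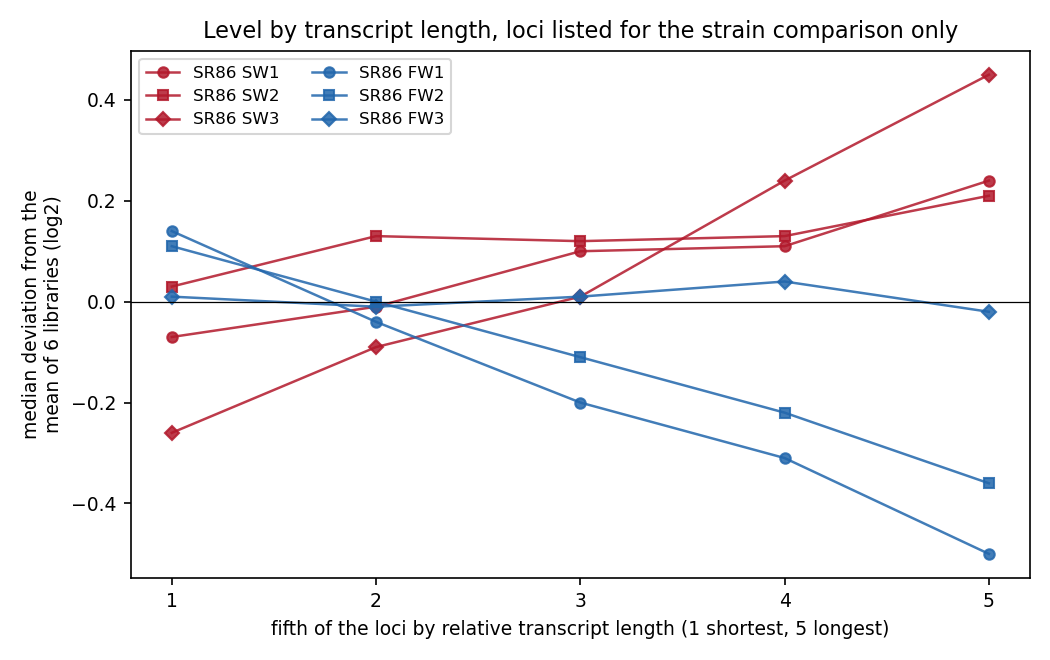
Median deviation of log2(FPKM + 0.5) from the mean of the 6 libraries, in 5 equal classes of relative transcript length, for loci listed for the comparison of strains only; each line is a library. In the longest class the SW libraries stand at 0.21 to 0.45 and the SR86 FW libraries at -0.50 to -0.02.

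Outside the 8 families left out of the groups, the largest rises were mostly in loci of no named function. Within those families the dirigent LOC_Os10g18760 rose more than any of these (log2 fold change 7.13, SE 0.32, adjusted p = 0.00231). It had 107, 112 and 92 FPKM in SW, against 0.67, 0.2 and 0 FPKM in SR86 FW. The peroxidase LOC_Os07g34710 had a log2 fold change of 5.29. Of the 10 largest among annotated loci outside the families, 6 were annotated only as expressed protein, and the 3 largest of the 10 lay in 1 stretch of chromosome 2. LOC_Os02g37500 of that stretch had 77.5, 55.5 and 38.6 FPKM in SW, against 0, 0 and 1.72 FPKM in SR86 FW (log2 fold change 6.08, SE 0.61, adjusted p = 0.0087), and LOC_Os02g37380 had 409.8, 298 and 684 FPKM in SW, against 12.3, 0.82 and 26.2 FPKM in SR86 FW (log2 fold change 5.83, SE 1.03, adjusted p = 0.0195), with R1 FW libraries between, at 136, 129 and 142 FPKM. LOC_Os01g55060 had 17, 28.8 and 9.75 FPKM in SW, against 0 in each of the SR86 FW libraries (adjusted p = 0.00661). The expressed proteins LOC_Os06g48355, LOC_Os07g34690 and LOC_Os06g02555 had log2 fold changes of 4.75, 4.66 and 4.51. The others of the 10 that are reported had an annotated function, and the cadmium tolerance factor among them is given with the metal proteins. LOC_Os03g31750, annotated as pyruvate, phosphate dikinase, the enzyme that turns pyruvate into phosphoenolpyruvate, had 718, 214 and 233 FPKM in SW, against 6.21, 6.66 and 22.8 FPKM in SR86 FW (log2 fold change 4.99, SE 0.63, adjusted p = 0.0113). R1 FW libraries had 33.7, 31.1 and 35.5 FPKM. The SW values were thus all above those of both cultivars in FW, and SW1 stood well above SW2 and SW3. LOC_Os09g25625, a leader peptide of S-adenosylmethionine decarboxylase, an enzyme of polyamine synthesis, had 18.1, 27.9 and 21.4 FPKM in SW, against 0, 0 and 3.12 FPKM in SR86 FW (log2 fold change 4.55, SE 0.76, adjusted p = 0.0172), and R1 FW libraries had 19.6, 26.5 and 20.2 FPKM, within the SW range or near it.

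Of the 10 largest falls outside the 8 families, 4 were annotated only as expressed protein, and all 10 were nearly silent in SW. LOC_Os07g03458, an SCP-like extracellular protein, was listed at 0 in every SW library, against 52.4, 24.8 and 32 FPKM in SR86 FW (adjusted p = 0.00231). So were LTPL125 (LOC_Os04g55159), a lipid transfer protein, against 40.2, 31.1 and 7.82 FPKM in SR86 FW, and the expressed proteins LOC_Os01g64270, against 31.4, 32.5 and 7.59 FPKM, and LOC_Os01g70120, against 26.2, 25.4 and 4.08 FPKM, with FW3 lowest in all 3. LOC_Os01g71630, an expressed protein, had 0.17, 0.09 and 0.04 FPKM in SW, against 95.7, 23.6 and 25.2 FPKM in SR86 FW (log2 fold change -6.03, SE 0.53, adjusted p = 0.00854). LOC_Os09g31019, a ubiquitin fusion protein, had 0.54, 0.93 and 0.06 FPKM in SW, against 34.2, 37 and 31.1 FPKM in SR86 FW (log2 fold change -5.20, SE 0.35, adjusted p = 0.00577). LOC_Os12g37710, annotated as PsbP, a protein of photosystem II, had 0, 0.12 and 0.16 FPKM in SW, against 27.9, 19.9 and 10.1 FPKM in SR86 FW (log2 fold change -4.96, SE 0.38, adjusted p = 0.00661). LOC_Os12g28177, annotated as ATPase 3, had 0, 0.82 and 0.02 FPKM in SW, against 33.5, 28.2 and 21.1 FPKM in SR86 FW (log2 fold change -5.30, SE 0.42, adjusted p = 0.00661), and was listed at 0 in the 3 R1 libraries. For these 3 loci every SW library was under 1 FPKM and every SR86 FW library was at 10.1 FPKM or more. LOC_Os03g17300, a receptor-like kinase of the CrRLK1L subfamily, was at 0, 0.17 and 0.03 FPKM in SW, against 27.9, 22.4 and 5.21 in SR86 FW, with FW3 lowest (log2 fold change -4.78, SE 0.59, adjusted p = 0.011). LOC_Os06g50742, an expressed protein, was at 0.07, 2.14 and 0 FPKM in SW, against 25.7, 33.8 and 21.1 in SR86 FW (log2 fold change -4.89, SE 0.63, adjusted p = 0.0116), and R1 FW libraries were higher than both, at 204, 174 and 191 FPKM. Over all loci tested, 9 of those called were at 0 throughout SW and 18 throughout SR86 FW, and no fold is given for these.

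Of the 10 called loci with the highest mean, 9 fell and 1 rose. The locus that rose was LOC_Os11g24140, a plastocyanin-like protein, with 3230, 2944 and 2312 FPKM in SW, against 964, 1080 and 1668 FPKM in SR86 FW (log2 fold change 1.22, SE 0.30, adjusted p = 0.0367), and with 3246, 3281 and 3155 FPKM in R1 FW. LOC_Os03g17870, a metallothionein, a small cysteine-rich protein that binds metals, had 1602, 1389 and 1322 FPKM in SW, against 6819, 5616 and 6792 FPKM in SR86 FW (log2 fold change -2.16, SE 0.27, adjusted p = 0.0111). LOC_Os02g37260, a hypothetical protein, had 99.2, 200.3 and 103 FPKM in SW, against 1571, 3720 and 2325 FPKM in SR86 FW (log2 fold change -4.23, SE 0.40, adjusted p = 0.00854). The SW libraries of both lay far below every FW library of either cultivar, since R1 FW had 5230, 5640 and 4891 FPKM of the metallothionein and 2590, 3397 and 1938 FPKM of LOC_Os02g37260. LOC_Os07g08840, a thioredoxin, had 753, 1108 and 1395 FPKM in SW, against 3415, 2735 and 2235 FPKM in SR86 FW (log2 fold change -1.39, SE 0.32, adjusted p = 0.031). The others that fell were the abscisic stress-ripening locus LOC_Os02g33820, the metallothionein LOC_Os12g38270, the heavy metal-associated domain protein LOC_Os08g10480, RALFL29 (LOC_Os10g42020), the expressed protein LOC_Os06g39110 and LOC_Os06g46770, which has no annotation, with log2 fold changes between -2.52 and -1.02.

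**Figure D3:**
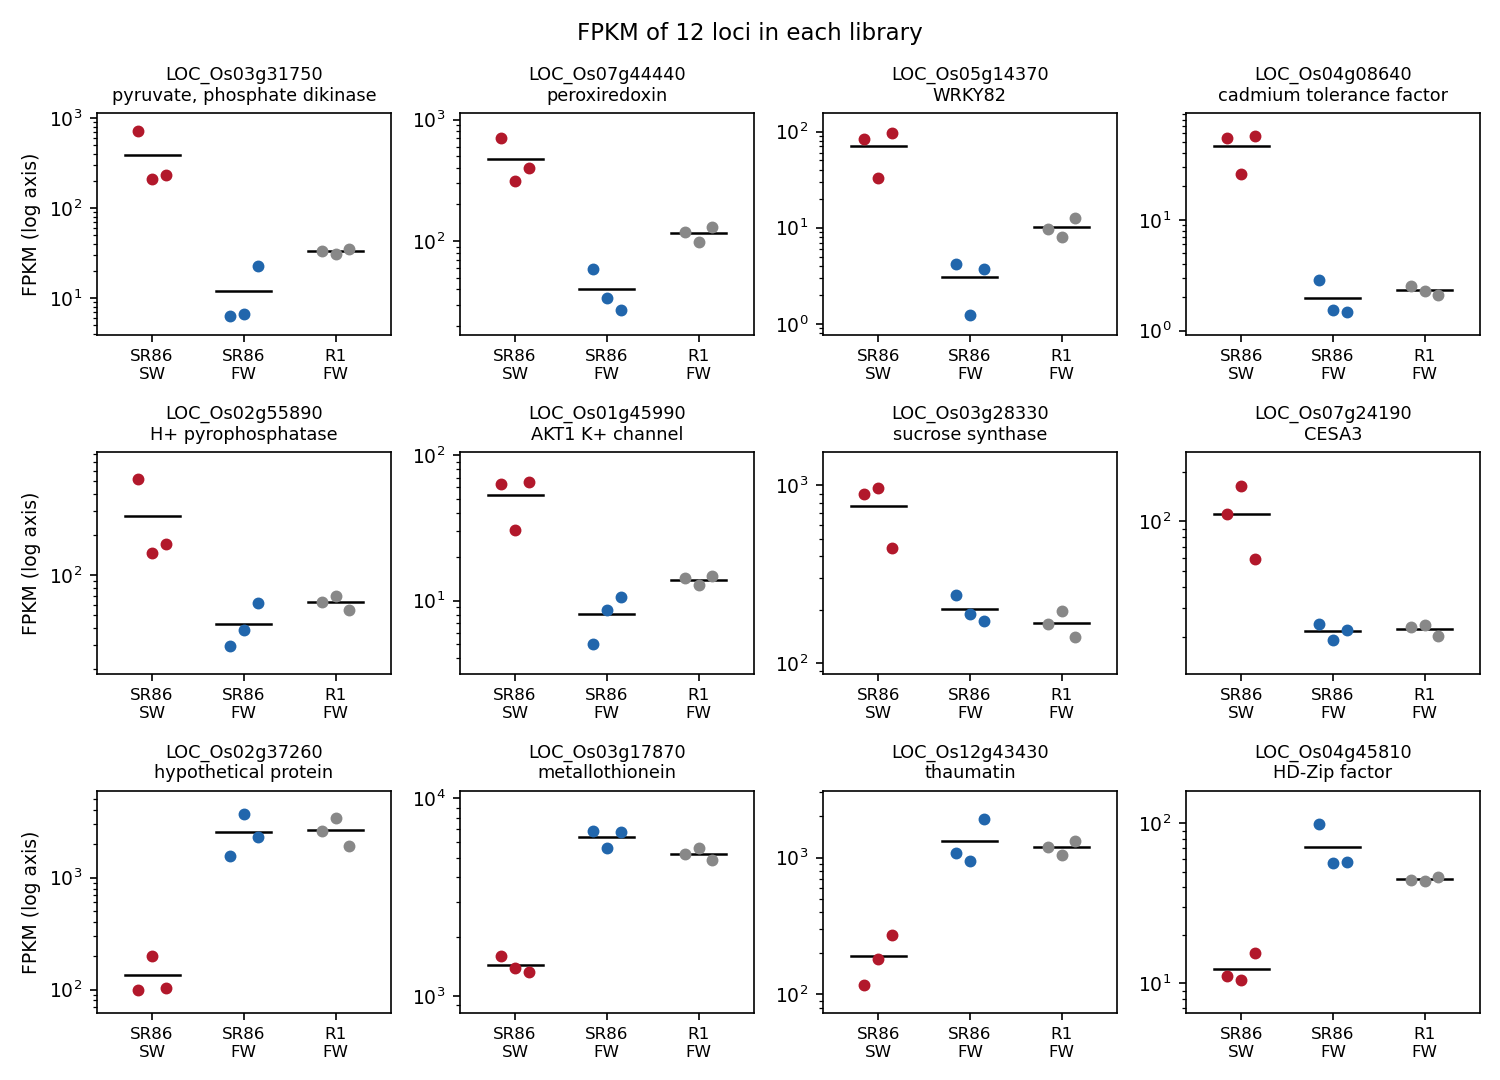
FPKM of 12 named loci in each library, on a log axis, with SW left of SR86 FW and R1 FW; points are libraries and lines are group means. The pyruvate, phosphate dikinase locus stands at 214 to 718 FPKM in SW and at 6.21 to 22.8 FPKM in SR86 FW, and the metallothionein at 1322 to 1602 FPKM in SW and at 5616 to 6819 FPKM in SR86 FW.

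Most genes of cellulose synthesis were higher in SW. Of 21 loci of the cellulose synthase family, 15 were called higher and 1 lower (median log2 fold change 1.97, and 1.47 with the length trend removed, in loci 2.34 times as long as the median). Their summed level was 617, 665 and 263 FPKM in SW, against 137, 131 and 162 FPKM in SR86 FW, and 139.8, 148 and 126 FPKM in R1 FW (3.59-fold of SR86 FW, exact two-sided permutation p = 0.1, the smallest that 3 against 3 libraries can give). SW1 and SW2 stood far above the rest, and SW3 stood between them and the FW libraries. All 9 CESA loci, which encode the subunits of cellulose synthase itself, were called higher, with log2 fold changes between 1.69 (LOC_Os03g62090, CESA5) and 3.00 (LOC_Os09g25490, CESA9). CESA3, LOC_Os07g24190, the most abundant of them, had 111, 164 and 59.1 FPKM in SW, against 24, 19.1 and 21.8 FPKM in SR86 FW (log2 fold change 2.22, SE 0.35, adjusted p = 0.0161).

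CESA4, CESA7 and CESA9, which in rice make the cellulose of secondary walls, and CESA1, CESA3 and CESA8, known from primary walls, were all called higher. CESA9 had 23.7, 42.9 and 10.7 FPKM in SW, against 3.97, 2.23 and 1.41 FPKM in SR86 FW, and CESA7, LOC_Os10g32980, had 21.4, 33.1 and 9.88 FPKM in SW, against 3.95, 2.58 and 1.38 FPKM in SR86 FW (log2 fold changes 3.00 and 2.74, SE 0.53 and 0.49), with SW3 the lowest SW library of both. CESA1, LOC_Os05g08370, had 95.5, 75.7 and 34.6 FPKM in SW, against 14.2, 10.3 and 20.8 FPKM in SR86 FW (log2 fold change 2.08, SE 0.41, adjusted p = 0.024). CSLF6, LOC_Os08g06380, a cellulose synthase-like protein of mixed-linkage glucan synthesis, had 33.4, 33.7 and 9.45 FPKM in SW, against 2.47, 2.92 and 2.93 FPKM in SR86 FW (log2 fold change 2.79, SE 0.48, adjusted p = 0.018). Of 12 cellulose synthase-like (CSL) loci, 6 were called higher and 1 lower. The lower one was CSLE6, LOC_Os09g30130, with 17.3, 15.7 and 8.9 FPKM in SW, against 21, 36.1 and 39.1 FPKM in SR86 FW (log2 fold change -1.17, SE 0.33, adjusted p = 0.0481). Calls among the 21 loci numbered 0, 2 and 15 without SW1, SW2 and SW3 and 6, 1 and 14 without FW1, FW2 and FW3.

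Other wall proteins moved in part the same way. Of 17 expansins, proteins that loosen growing walls, 5 were called higher and none lower, and all 17 had a positive log2 fold change (median 1.45, and 1.40 with the length trend removed). LOC_Os10g40730 had 53.1, 61.5 and 19.1 FPKM in SW, against 9.98, 10.4 and 8.34 FPKM in SR86 FW (log2 fold change 2.01, SE 0.42, adjusted p = 0.0266). The most abundant expansin of the comparison, LOC_Os10g40720, had 44.1, 40.3 and 27.8 FPKM in SW, against 9.92, 97.5 and 39.5 FPKM in SR86 FW, with SR86 FW2 the highest of the 6 and FW1 the lowest (log2 fold change 0.11, SE 0.74, adjusted p = 0.923). The summed level of the 17 was 355, 344 and 310.3 FPKM in SW, against 80.7, 166 and 207 FPKM in SR86 FW, and 758, 519.7 and 936 FPKM in R1 FW, where it was highest. Of 37 enzymes that remodel pectin and xyloglucan, 13 were called higher and 4 lower (median 1.16, and 0.90 with the length trend removed). Their summed levels overlapped, at 531, 515 and 277 FPKM in SW, against 377, 264 and 272 FPKM in SR86 FW. Calls of expansins numbered 0, 0 and 11 without SW1, SW2 and SW3 and 0, 0 and 6 without FW1, FW2 and FW3, and those of the pectin and xyloglucan enzymes 0, 1 and 22 without SW1, SW2 and SW3 and 3, 0 and 15 without FW1, FW2 and FW3.

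Laccases, fasciclin proteins and glycine-rich wall proteins formed 1 group, of which 18 of 50 were called higher and 5 lower (median 1.50, and 1.36 with the length trend removed). Their summed levels overlapped between SW and SR86 FW, and an abundant laccase was called lower while others were called higher. LOC_Os12g15680, a laccase, an oxidase linked to lignin, had 97.1, 72.8 and 115 FPKM in SW, against 428, 193 and 455 FPKM in SR86 FW (log2 fold change -1.84, SE 0.36, adjusted p = 0.0231), and R1 FW libraries were higher still, at 991, 908 and 1037 FPKM. Of the 12 laccases, 6 were called higher and 3 lower. All 12 fasciclin proteins, wall glycoproteins, had log2 fold changes of at least 0, with 3 called, and their summed level was 679, 628 and 122 FPKM in SW, against 125, 71.9 and 66.7 FPKM in SR86 FW. SW3 was close to SR86 FW1 there, and far below SW1 and SW2. The glycine-rich wall protein LOC_Os04g56010 had 2.66, 5.44 and 4.15 FPKM in SW, against 17.9, 15.2 and 21.1 FPKM in SR86 FW (log2 fold change -2.05, SE 0.27, adjusted p = 0.0122), lower in SW. Calls among the 50 wall proteins numbered 0, 3 and 36 without SW1, SW2 and SW3 and 9, 4 and 19 without FW1, FW2 and FW3.

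Most genes that copy DNA and drive the cell cycle were higher in SW. Of 23 DNA replication proteins, 16 were called higher and none lower (median 1.47, and 1.09 with the length trend removed). Their summed levels overlapped, at 136, 130.4 and 85.5 FPKM in SW, against 117, 103 and 81.8 FPKM in SR86 FW (1.17-fold of SR86 FW, exact two-sided permutation p = 0.4). All 6 loci of MCM2 to MCM7, the subunits of the helicase that opens DNA for copying, were called higher, with summed levels of 43.7, 41.9 and 22.1 FPKM in SW, against 6.8, 5.1 and 6.9 FPKM in SR86 FW, and 8.1, 8.8 and 7.6 FPKM in R1 FW. The SW libraries were 5.72-fold of SR86 FW in the mean, with SW3 lowest among them. MCM4, LOC_Os01g36390, had 7.73, 7.78 and 3.86 FPKM in SW, against 0.9, 0.64 and 1.05 FPKM in SR86 FW (log2 fold change 2.30, SE 0.32, adjusted p = 0.0131). MCM2, LOC_Os11g29380, had 7.71, 8.26 and 4.55 FPKM in SW, against 1.1, 0.94 and 1.25 FPKM in SR86 FW (log2 fold change 2.16, SE 0.28, adjusted p = 0.0117). POLD4A, LOC_Os09g34850, a subunit of DNA polymerase delta and the most abundant of the 23, was lower in every SW library, with 40.0, 42.1 and 35.6 FPKM in SW, against 93.7, 83.6 and 58.9 FPKM in SR86 FW, and fell just short of the 2-fold change of a call (log2 fold change -0.97, SE 0.20, adjusted p = 0.0247).

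Of 19 cyclins and cyclin-dependent kinases, 11 were called higher and none lower (median 1.55, and 1.21 with the length trend removed). Their summed level was 123, 131 and 62.6 FPKM in SW, against 32.9, 41 and 34.6 FPKM in SR86 FW, and 46.1, 52.3 and 41.7 FPKM in R1 FW. The cyclin-dependent kinase B2-1, LOC_Os08g40170, a kinase of mitosis, had 16.3, 19.4 and 7.42 FPKM in SW, against 3.48, 3.03 and 3.44 FPKM in SR86 FW (log2 fold change 1.86, SE 0.35, adjusted p = 0.022). LOC_Os01g59120, a cyclin, had 13.7, 15 and 5.72 FPKM in SW, against 1.54, 1.61 and 1.72 FPKM in SR86 FW (log2 fold change 2.39, SE 0.37, adjusted p = 0.0152). Of 22 histones, which package the copied DNA, 3 were called higher and 1 lower (median -0.70, and -0.53 with the length trend removed), and their sums were lower in SW, at 1787, 1867 and 1481 FPKM, against 2648, 3364 and 2232 FPKM in SR86 FW and 1354, 1560 and 1208 FPKM in R1 FW. The sums of the histones were thus lower in SW, while those of MCM2 to MCM7 were higher. The most abundant, the histone H3 locus LOC_Os03g27310, had 442, 463 and 455 FPKM in SW, against 759, 965 and 715 FPKM in SR86 FW, lower in every SW library but short of the fold (log2 fold change -0.83, SE 0.18, adjusted p = 0.0295). In all 3 histone loci called higher, SW1 and SW2 were high and SW3 was near FW, as in LOC_Os03g17100, with 73.9, 79.4 and 26 FPKM in SW, against 20.6, 18.5 and 16.2 FPKM in SR86 FW. Replication calls numbered 0, 1 and 17 without SW1, SW2 and SW3 and 5, 0 and 18 without FW1, FW2 and FW3, those of cyclins and kinases 0, 1 and 13 without SW1, SW2 and SW3 and 3, 1 and 10 without FW1, FW2 and FW3, and those of histones 0, 0 and 6 without SW1, SW2 and SW3 and 0, 0 and 3 without FW1, FW2 and FW3.

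Auxin sets the pattern of division and elongation in the root, and Aux/IAA proteins repress its response while auxin response factors bind its target genes. Of 45 auxin genes, 18 were called higher and 3 lower (median 1.08, and 0.77 with the length trend removed). Their summed levels overlapped, at 930, 856 and 544 FPKM in SW, against 518, 586 and 557 FPKM in SR86 FW. Of the 10 Aux/IAA loci, 6 were called higher and none lower, with summed levels of 426, 333 and 128 FPKM in SW, against 112, 113 and 130.0 FPKM in SR86 FW. SW3 lay within the range of SR86 FW. OsIAA13, LOC_Os03g53150, had 164, 98.9 and 26.6 FPKM in SW, against 18.7, 13.3 and 16.6 FPKM in SR86 FW (log2 fold change 2.20, SE 0.61, adjusted p = 0.0475). Of the 6 auxin response factors, 4 were called higher, and in these SW3 stood with the other SW libraries. Auxin response factor 1, LOC_Os01g13520, had 37.5, 29.7 and 35.3 FPKM in SW, against 4.95, 5.76 and 8.87 FPKM in SR86 FW (log2 fold change 2.33, SE 0.23, adjusted p = 0.0087). Auxin response factor 5, LOC_Os02g04810, had 7.05, 6.38 and 5.83 FPKM in SW, against 0.54, 0.58 and 0.96 FPKM in SR86 FW (log2 fold change 2.55, SE 0.24, adjusted p = 0.00854). Those that fell were LOC_Os01g70050 (OsSAUR3), LOC_Os05g01570 and LOC_Os09g25770, with log2 fold changes of -1.63, -1.18 and -1.05. Auxin calls numbered 0, 3 and 22 without SW1, SW2 and SW3 and 5, 2 and 22 without FW1, FW2 and FW3.

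Receptor-like kinases, which sense peptides, wall fragments and other signals at the cell surface, were the largest group, and 79 of 185 were called higher and 1 lower (median 1.17, and 0.64 with the length trend removed, in loci 1.83 times as long as the median). Some kinases annotated by subfamily stood outside this group, such as LOC_Os03g17300 of the largest falls, called lower, and LOC_Os03g43670, called higher. Their summed level was 1768, 1637 and 1912 FPKM in SW, against 1173, 1265 and 1371 FPKM in SR86 FW, and 1481, 1396 and 1519 FPKM in R1 FW. Of 16 wall-associated kinases (WAK), 6 were called higher, and of 15 S-locus-like kinases 12, with none lower in either. OsWAK105, LOC_Os10g06140, had 18.6, 14 and 10.1 FPKM in SW, against 0.43, 1.26 and 1.24 FPKM in SR86 FW (log2 fold change 3.34, SE 0.35, adjusted p = 0.00939). The most abundant, LOC_Os01g59440, related to the co-receptor of brassinosteroid signalling, had 397, 408 and 432 FPKM in SW, against 641, 676 and 581 FPKM in SR86 FW, lower in SW but short of the fold (log2 fold change -0.62, SE 0.16, adjusted p = 0.0394). Kinase calls numbered 0, 18 and 65 without SW1, SW2 and SW3 and 24, 6 and 85 without FW1, FW2 and FW3. After quantile normalization 45 were called higher and 4 lower.

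Loci whose annotation names the root cap, the tissue that covers the root tip, were highest in sum in SW1 and SW2. The sums of the cellulose synthase family, of MCM2 to MCM7 and of the cyclins and kinases were highest in the same libraries. The 7 root cap and LEA related (RCLEA) loci had summed levels of 114, 112 and 28.7 FPKM in SW, against 8.83, 20.8 and 27.2 FPKM in SR86 FW, and 17.2, 26.2 and 7.32 FPKM in R1 FW. SW1 and SW2 stood apart from all others, and SW3 was just above SR86 FW3, the highest of the SR86 FW libraries. The sums of the cellulose synthase family, MCM2 to MCM7 and the cyclins and kinases were also higher in SW3 than in any SR86 FW library. Those of all DNA replication proteins, histones, pectin and xyloglucan enzymes and fasciclin proteins were not. All 7 had a positive log2 fold change and 3 were called higher (median 1.85, and 1.74 with the length trend removed). RCLEA2, LOC_Os01g73700, had 19.5, 12 and 1.27 FPKM in SW, against 0.22, 0.21 and 0.15 FPKM in SR86 FW (log2 fold change 3.46, SE 0.84, adjusted p = 0.0356), and was listed at 0 in R1 FW3. Their calls numbered 0, 0 and 6 without SW1, SW2 and SW3 and 0, 0 and 2 without FW1, FW2 and FW3. How much root tip each library held was not recorded, and its part in the wall and division results was not tested.

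**Figure D4:**
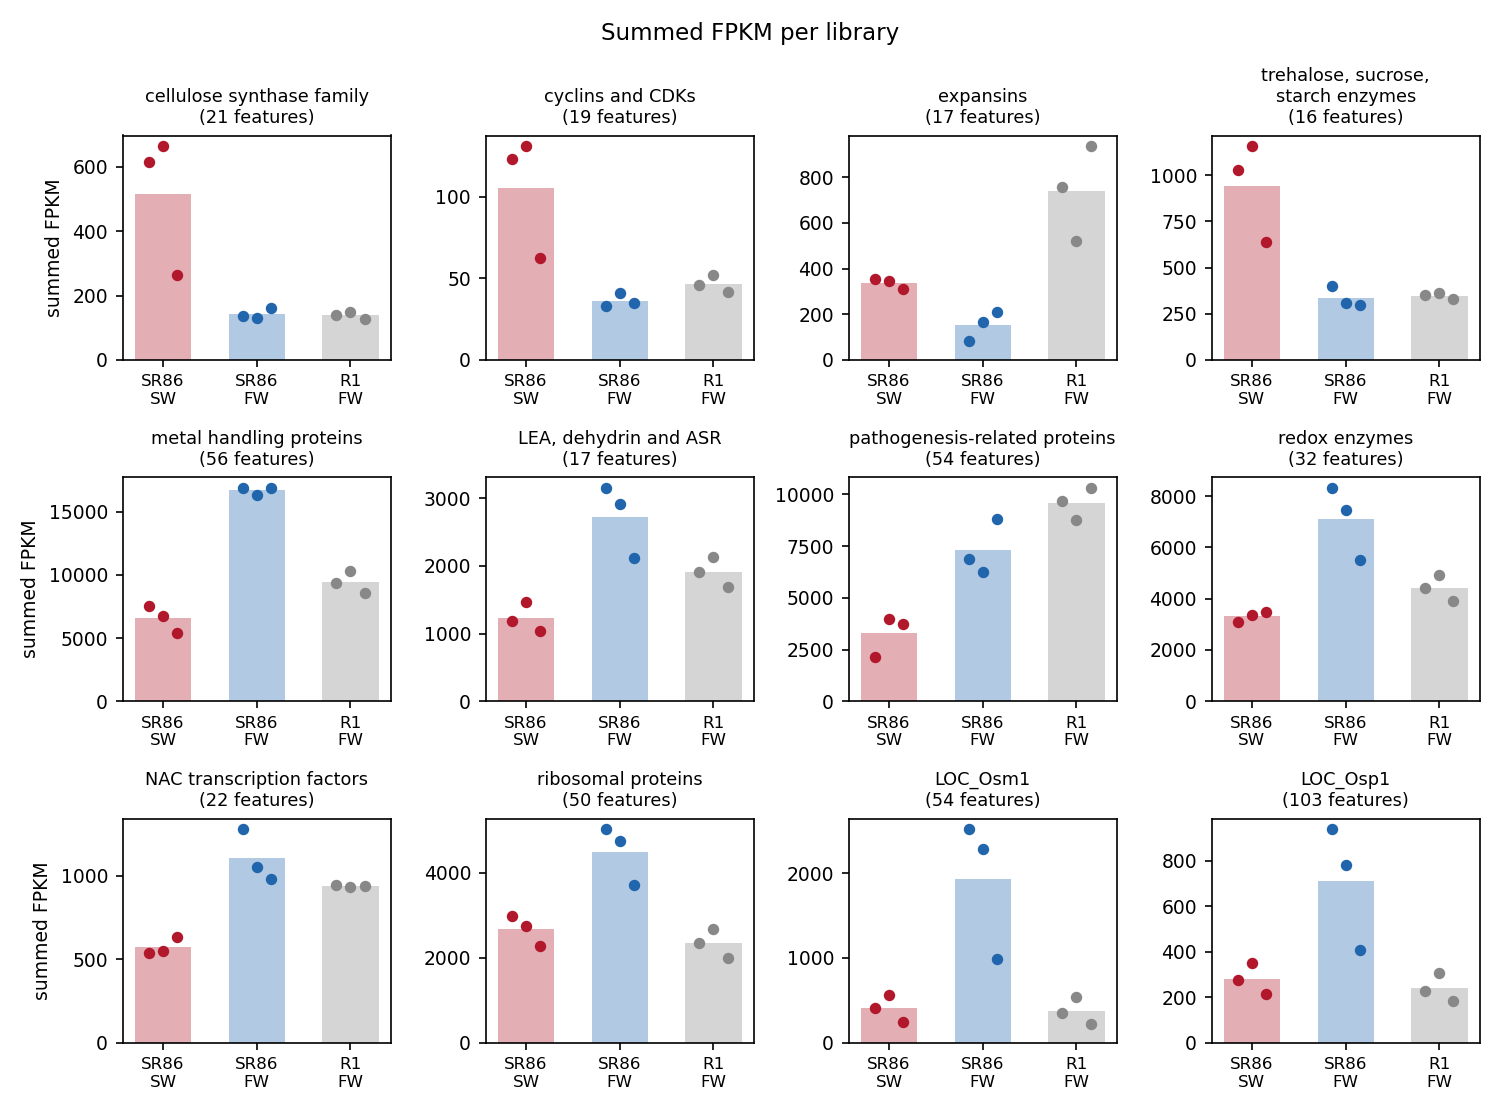
Summed FPKM of 12 sets of features in each library, with SW left of SR86 FW and R1 FW; bars are group means, points are libraries, and each axis starts at 0. The cellulose synthase family stands at 263 to 665 FPKM in SW and at 131 to 162 FPKM in SR86 FW, and the metal handling proteins at 5369 to 7536 FPKM in SW and at 16312 to 16891 FPKM in SR86 FW.

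Proteins that plant cells make when they lose water were lower in SW in sum. Of 17 LEA, dehydrin and abscisic stress-ripening (ASR) proteins, none was called higher and 5 were called lower (median -1.31, and -1.28 with the length trend removed). Their summed level was 1188, 1473 and 1042 FPKM in SW, against 3155, 2913 and 2119 FPKM in SR86 FW, and 1903, 2125 and 1694 FPKM in R1 FW, so the groups of SR86 did not overlap. The ASR locus LOC_Os02g33820, the most abundant of them, had 578, 967 and 489.9 FPKM in SW, against 1378, 2254 and 1343 FPKM in SR86 FW (log2 fold change -1.31, SE 0.34, adjusted p = 0.041). It made up a large part of the sums in both groups. Of the 5 ASR loci, 1 went the other way, with a log2 fold change of 2.79, and was not called. LOC_Os04g49980, a LEA protein of group 1, had 2.05, 1.96 and 0.71 FPKM in SW, against 16.9, 12.4 and 11.6 FPKM in SR86 FW (log2 fold change -2.83, SE 0.34, adjusted p = 0.0107). Calls of the 17 numbered 0, 2 and 4 without SW1, SW2 and SW3 and 4, 2 and 6 without FW1, FW2 and FW3.

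None of the 5 dehydrins was called. LOC_Os11g26790 had 1.19, 7.39 and 2.25 FPKM in SW, against 308, 4.91 and 11.9 FPKM in SR86 FW (log2 fold change -3.05, SE 1.45, adjusted p = 0.164), and LOC_Os11g26750 had 0.39, 4.3 and 1.02 FPKM in SW, against 223, 0.94 and 8.84 FPKM in SR86 FW (log2 fold change -2.95, SE 1.71, adjusted p = 0.241). Both were high in SR86 FW1 alone, and so were the other two of chromosome 11, LOC_Os11g26780, with 45, 1.97 and 3.05 FPKM in SR86 FW1 to FW3, and LOC_Os11g26570, with 55.1, 3.03 and 2.84 FPKM. The group 3 LEA protein LOC_Os05g46480 was highest in FW1 too, at 115, 5.76 and 32.2 FPKM in SR86 FW, against 2.07, 5.19 and 2.71 FPKM in SW. The abundant dehydrin LOC_Os03g45280 had 260.1, 223 and 152 FPKM in SW, against 242, 221 and 90.2 FPKM in SR86 FW, with no such library (log2 fold change 0.29, SE 0.41, adjusted p = 0.627).

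Genes of abscisic acid synthesis formed 1 group with protein phosphatases of type 2C, a family that includes negative regulators of the abscisic acid response. Of 10, none was called higher and 2 lower (median -0.86, and -1.15 with the length trend removed), and the sums were 27.2, 33.4 and 29.9 FPKM in SW, against 108, 65.5 and 53.8 FPKM in SR86 FW, and 92.7, 84.3 and 91.6 FPKM in R1 FW. LOC_Os12g42280, a 9-cis-epoxycarotenoid dioxygenase, the enzyme of the committed step to abscisic acid, had 5.83, 6.03 and 6.38 FPKM in SW, against 31, 18.3 and 7.11 FPKM in SR86 FW (log2 fold change -1.33, SE 0.48, adjusted p = 0.0887). FW1 and FW2 were high and FW3 was close to SW. LOC_Os11g13820, a protein phosphatase 2C, had 1.81, 2.35 and 1.4 FPKM in SW, against 3.12, 7.06 and 6.92 FPKM in SR86 FW (log2 fold change -1.34, SE 0.35, adjusted p = 0.042). Aquaporins, the channels for water, overlapped in sum, with 2 of 16 called higher and 3 lower (median -0.97, and -1.09 with the length trend removed). LOC_Os07g26630 fell, with 138, 158 and 99 FPKM in SW, against 368, 415 and 237 FPKM in SR86 FW (log2 fold change -1.35, SE 0.27, adjusted p = 0.024), and LOC_Os04g16450 rose, with 122, 163 and 49.5 FPKM in SW, against 31.6, 29.9 and 10.01 FPKM in SR86 FW (log2 fold change 2.20, SE 0.57, adjusted p = 0.0406). Calls of the abscisic acid group numbered 0, 0 and 0 without SW1, SW2 and SW3 and 2, 0 and 1 without FW1, FW2 and FW3, and those of aquaporins 0, 0 and 4 without SW1, SW2 and SW3 and 1, 0 and 5 without FW1, FW2 and FW3.

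Among ion transporters, carriers of potassium and other monovalent cations were higher in sum. Their 13 loci held 136, 99.9 and 117 FPKM in SW, against 38.5, 67.1 and 47.1 FPKM in SR86 FW, and 56.2, 51 and 62.8 FPKM in R1 FW, with 3 called higher and 2 lower (median 0.66, and 0.26 with the length trend removed). AKT1, LOC_Os01g45990, the channel through which root cells take up potassium, had 63, 30.5 and 65.8 FPKM in SW, against 5.01, 8.57 and 10.5 FPKM in SR86 FW (log2 fold change 2.63, SE 0.37, adjusted p = 0.0133). LOC_Os05g31730, a monovalent cation to proton antiporter, had 9.19, 5.9 and 3.81 FPKM in SW, against 0.67, 0.61 and 0.46 FPKM in SR86 FW (log2 fold change 2.58, SE 0.33, adjusted p = 0.0118). The potassium transporter LOC_Os03g37840 had 2.8, 4.46 and 1.57 FPKM in SW, against 7.31, 17.3 and 11.4 FPKM in SR86 FW (log2 fold change -1.87, SE 0.42, adjusted p = 0.0297). Without AKT1, left out after its values were seen, the sums of the other 12 loci overlapped, at 72.8, 69.4 and 50.8 FPKM in SW, against 33.5, 58.6 and 36.6 FPKM in SR86 FW. Members of the group were thus called in both directions.

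Proton pumps set up the gradient that drives such antiporters, and 5 loci were measured with an annotation. Of the 5, 2 were called higher and 1 lower (median 1.32, and 0.84 with the length trend removed). LOC_Os02g55890, a proton-pumping pyrophosphatase, had 515, 144 and 169 FPKM in SW, against 29.3, 38.8 and 61.4 FPKM in SR86 FW (log2 fold change 2.48, SE 0.51, adjusted p = 0.0257), and a second pyrophosphatase, LOC_Os01g23580, had 5.73, 8.29 and 12.1 FPKM in SW, against 17.2, 24.4 and 26.9 FPKM in SR86 FW (log2 fold change -1.38, SE 0.30, adjusted p = 0.0279). The 2 pyrophosphatases thus moved in opposite directions. LOC_Os07g36465, subunit H of the vacuolar ATPase, had 41, 24.2 and 34.1 FPKM in SW, against 3.36, 3.19 and 17.7 FPKM in SR86 FW (log2 fold change 2.37, SE 0.61, adjusted p = 0.0408). Of 14 carriers of nitrogen, phosphate and sulfate, 3 were called higher and 1 lower, and after quantile normalization 2 higher and 3 lower (median -0.50, and -0.78 with the length trend removed), and the lower locus was the ammonium transporter LOC_Os01g42740, with 3.78, 2.44 and 2.98 FPKM in SW, against 6.96, 10.02 and 9.65 FPKM in SR86 FW (log2 fold change -1.40, SE 0.24, adjusted p = 0.0183). ABC transporters, which export many compounds, had 7 of 20 called higher and none lower (median 0.93, and 0.36 with the length trend removed). Amino acid and peptide transporters had 7 of 39 called in each direction, with a median of 0.22 that turned to -0.12 with the length trend removed. Calls of cation carriers numbered 0, 3 and 4 without SW1, SW2 and SW3 and 2, 1 and 5 without FW1, FW2 and FW3, those of proton pumps 0, 0 and 3 without SW1, SW2 and SW3 and 0, 0 and 3 without FW1, FW2 and FW3, those of ABC transporters 0, 0 and 5 without SW1, SW2 and SW3 and 0, 0 and 8 without FW1, FW2 and FW3, those of nitrogen, phosphate and sulfate carriers 0, 0 and 5 without SW1, SW2 and SW3 and 3, 0 and 4 without FW1, FW2 and FW3, and those of amino acid and peptide transporters 0, 2 and 17 without SW1, SW2 and SW3 and 8, 0 and 14 without FW1, FW2 and FW3.

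Sucrose is brought to the root and cleaved there, and the most abundant locus of a cleaving enzyme rose. LOC_Os03g28330, a sucrose synthase, had 892, 964 and 442 FPKM in SW, against 241, 189 and 173 FPKM in SR86 FW (log2 fold change 1.86, SE 0.32, adjusted p = 0.0186), and R1 FW libraries had 166, 196 and 139.5 FPKM. It made up most of the sum of the 16 trehalose, sucrose and starch enzymes, 1031, 1158 and 639.6 FPKM in SW, against 402, 309.7 and 299 FPKM in SR86 FW. Their median went the other way, at -0.30 (-0.25 with the length trend removed), with 3 called higher and 2 lower. LOC_Os06g43630, a sucrose-phosphate synthase, an enzyme of sucrose synthesis, had 50.2, 43 and 46.3 FPKM in SW, against 14.6, 12.8 and 21.2 FPKM in SR86 FW (log2 fold change 1.52, SE 0.20, adjusted p = 0.0123), with all 3 SW libraries above those of R1 FW, at 29.7, 27.4 and 29.7 FPKM. Calls of the 16 numbered 0, 1 and 4 without SW1, SW2 and SW3 and 1, 0 and 4 without FW1, FW2 and FW3.

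Proteins that bind and carry metals were lower in SW in sum. The 56 loci held 7536, 6777 and 5369 FPKM in SW, against 16891, 16312 and 16831 FPKM in SR86 FW, and 9362, 10291 and 8532 FPKM in R1 FW, with 10 called higher and 16 lower (median -0.18, and -0.23 with the length trend removed). Kinds of protein within the group differed in direction. All 10 metallothioneins had a negative log2 fold change and 6 were called lower, and their sum in SW was 0.365 times that in SR86 FW. They made up most of the sums of the 56 loci, with 6231, 5357 and 3996 FPKM in SW, against 14184, 13702 and 14851 FPKM in SR86 FW. LOC_Os12g38270 had 423, 319 and 177 FPKM in SW, against 1661, 1738 and 1587 FPKM in SR86 FW (log2 fold change -2.52, SE 0.32, adjusted p = 0.0114). Of 25 heavy metal-associated domain proteins, 9 were called lower and 3 higher, and the lower LOC_Os01g61070 had 17.7, 7.23 and 11 FPKM in SW, against 41.3, 67 and 88.1 FPKM in SR86 FW (log2 fold change -2.43, SE 0.38, adjusted p = 0.016). All 10 loci annotated as cadmium tolerance factors had a positive log2 fold change, 7 were called higher, and their sums were 122, 68 and 138 FPKM in SW, against 20.5, 16.9 and 16.3 FPKM in SR86 FW, and 17.6, 15.8 and 18 FPKM in R1 FW. LOC_Os04g08640 had 54.6, 25.7 and 57.4 FPKM in SW, against 2.87, 1.55 and 1.47 FPKM in SR86 FW (log2 fold change 4.19, SE 0.37, adjusted p = 0.00854), and LOC_Os06g19210 had 25.2, 7.16 and 38 FPKM in SW, against 0.58, 0.13 and 0.43 FPKM in SR86 FW (log2 fold change 4.52, SE 0.59, adjusted p = 0.0122). SW2 was the lowest of the SW libraries in both. Metal handling calls numbered 3, 8 and 23 without SW1, SW2 and SW3 and 11, 4 and 25 without FW1, FW2 and FW3.

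Enzymes that make and remove reactive oxygen also differed by kind. The 32 redox loci, which leave out peroxidases and glutathione S-transferases, held 3099, 3365 and 3474 FPKM in SW, against 8330, 7460 and 5508 FPKM in SR86 FW, with 5 called higher and 11 lower (median -0.90, and -1.02 with the length trend removed). LOC_Os07g44440, a peroxiredoxin, which reduces peroxides, had 708, 313 and 399 FPKM in SW, against 59.4, 34.2 and 27.1 FPKM in SR86 FW (log2 fold change 3.53, SE 0.38, adjusted p = 0.00963), and R1 FW libraries stood between, at 119, 99.2 and 131 FPKM. Of 4 respiratory burst oxidases, enzymes that make superoxide at the plasma membrane, 3 were called higher and none lower. LOC_Os01g25820 had 30.4, 30.3 and 12 FPKM in SW, against 6.19, 4.72 and 6.3 FPKM in SR86 FW (log2 fold change 1.88, SE 0.37, adjusted p = 0.0235). Of 5 glutaredoxins, which reduce disulfides with glutathione, 4 were called lower and none higher. LOC_Os04g42930 had 161, 198 and 209 FPKM in SW, against 1049, 1203 and 512 FPKM in SR86 FW (log2 fold change -2.19, SE 0.33, adjusted p = 0.0152), and LOC_Os02g40500 had 27, 29.7 and 24.3 FPKM in SW, against 91.4, 104 and 123 FPKM in SR86 FW (log2 fold change -1.95, SE 0.16, adjusted p = 0.00673). The 3 SW libraries of LOC_Os02g40500 lay within a narrow range below all FW libraries, as R1 FW had 58, 57.6 and 46.1 FPKM. Redox calls numbered 2, 5 and 15 without SW1, SW2 and SW3 and 10, 3 and 19 without FW1, FW2 and FW3.

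Pathogenesis-related proteins, secreted in defence, were lower in SW in sum. Of 54 pathogenesis-related loci, 2 were called higher and 11 lower (median -0.35, and -0.49 with the length trend removed), and sums were 2136, 3993 and 3732 FPKM in SW, against 6887, 6243 and 8803 FPKM in SR86 FW, and 9694, 8763 and 10323 FPKM in R1 FW. LOC_Os12g43430, a thaumatin, had 117, 180.3 and 273 FPKM in SW, against 1087, 947 and 1918 FPKM in SR86 FW (log2 fold change -2.80, SE 0.38, adjusted p = 0.0127). LOC_Os01g53090, a pathogen-related protein, had 9.01, 15 and 5.91 FPKM in SW, against 58.3, 98.9 and 49.8 FPKM in SR86 FW (log2 fold change -2.76, SE 0.38, adjusted p = 0.0127). Both were lower in SW than in any FW library of SR86. THION6, LOC_Os06g32020, a thionin, rose, with 125, 249.9 and 56.4 FPKM in SW, against 34, 33.8 and 22 FPKM in SR86 FW (log2 fold change 2.02, SE 0.51, adjusted p = 0.038). Lipid transfer proteins, secreted carriers of lipids, had 6 of 33 called higher and 5 lower, and after quantile normalization 3 higher and 8 lower (median -0.56, and -0.60 with the length trend removed). LTPL139, LOC_Os10g40430, had 34.1, 18.3 and 8.86 FPKM in SW, against 0.62, 0.26 and 1.46 FPKM in SR86 FW (log2 fold change 3.94, SE 0.54, adjusted p = 0.0127), and LTPL152, LOC_Os05g47700, had 321, 412 and 297 FPKM in SW, against 1075, 1171 and 731 FPKM in SR86 FW (log2 fold change -1.52, SE 0.24, adjusted p = 0.0166). Calls of the pathogenesis-related loci numbered 1, 3 and 19 without SW1, SW2 and SW3 and 6, 3 and 14 without FW1, FW2 and FW3, and those of lipid transfer proteins 0, 5 and 16 without SW1, SW2 and SW3 and 5, 2 and 8 without FW1, FW2 and FW3.

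Enzymes on the way from phenylalanine to flavonoids were lower in SW in sum, with 1013, 1209 and 1143 FPKM in SW, against 1380, 1577 and 1729 FPKM in SR86 FW, and 1941, 1845 and 2012 FPKM in R1 FW, and 3 of 47 were called higher and 11 lower (median -0.34, and -0.49 with the length trend removed). LOC_Os02g41650, a phenylalanine ammonia-lyase, the enzyme of the first step, overlapped, with 292, 363 and 296 FPKM in SW, against 253, 218 and 406 FPKM in SR86 FW. LOC_Os04g53810, a leucoanthocyanidin reductase, had 11.2, 14.5 and 3.36 FPKM in SW, against 50.7, 53.5 and 54.9 FPKM in SR86 FW (log2 fold change -2.61, SE 0.47, adjusted p = 0.0208). LOC_Os12g16290, an isoflavone reductase, rose, with 12, 12 and 10.2 FPKM in SW, against 2.7, 2.58 and 3.28 FPKM in SR86 FW (log2 fold change 1.83, SE 0.19, adjusted p = 0.00927), and R1 FW libraries had at most 0.09 FPKM. Of 98 cytochromes P450, which oxidise many secondary compounds, 21 were called higher and 13 lower, and after quantile normalization 15 higher and 24 lower (median -0.01, and -0.24 with the length trend removed). LOC_Os10g05020 had 19.2, 17.3 and 23.9 FPKM in SW, against 72.2, 62.6 and 65.9 FPKM in SR86 FW (log2 fold change -1.72, SE 0.16, adjusted p = 0.00854), and LOC_Os08g43390 had 15.6, 13.2 and 9.55 FPKM in SW, against 1.65, 3.1 and 0.94 FPKM in SR86 FW (log2 fold change 2.54, SE 0.37, adjusted p = 0.0139). None of 7 terpene synthases was called (median 0.13, -0.09 with the length trend removed and -0.15 after quantile normalization). Calls of the phenylpropanoid enzymes numbered 0, 2 and 17 without SW1, SW2 and SW3 and 7, 1 and 17 without FW1, FW2 and FW3, and those of the cytochromes P450 0, 5 and 33 without SW1, SW2 and SW3 and 16, 4 and 32 without FW1, FW2 and FW3.

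Heat shock proteins and chaperones, which refold proteins, had sums of 797, 810.1 and 743 FPKM in SW, against 1022, 975 and 935 FPKM in SR86 FW, with 5 of 40 called higher and 9 lower (median -0.39, and -0.52 with the length trend removed). LOC_Os11g10990, a DnaJ protein, had 0.85, 1.09 and 0.89 FPKM in SW, against 10.4, 6.08 and 4.61 FPKM in SR86 FW (log2 fold change -2.31, SE 0.32, adjusted p = 0.0127). LOC_Os03g15960, of the hsp20 family of small heat shock proteins, had 34.7, 57.1 and 50.1 FPKM in SW, against 154, 141 and 82.4 FPKM in SR86 FW (log2 fold change -1.38, SE 0.29, adjusted p = 0.0266). The most abundant, the DnaJ protein LOC_Os04g46390, overlapped, with 226, 199.5 and 215 FPKM in SW, against 145, 187 and 213 FPKM in SR86 FW. Chaperone calls numbered 0, 1 and 12 without SW1, SW2 and SW3 and 2, 1 and 15 without FW1, FW2 and FW3.

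Transcription factor families differed in direction. NAC factors, a plant family with many members in stress responses, had 5 of 22 called higher and 8 lower (median -0.79, and -0.94 with the length trend removed), and sums of 536, 548 and 633 FPKM in SW, against 1278, 1054 and 980.2 FPKM in SR86 FW, and 946, 934 and 937 FPKM in R1 FW. LOC_Os07g48450, the most abundant, had 104, 129 and 145 FPKM in SW, against 309, 362 and 291 FPKM in SR86 FW (log2 fold change -1.35, SE 0.18, adjusted p = 0.0122). Leucine zipper factors of the bZIP and homeobox kinds had 8 of 37 called higher and 12 lower (median -0.67, and -0.84 with the length trend removed). LOC_Os04g45810, a homeobox leucine zipper factor, had 11.1, 10.5 and 15.5 FPKM in SW, against 99.6, 56.7 and 57.6 FPKM in SR86 FW (log2 fold change -2.45, SE 0.27, adjusted p = 0.00963), and the bZIP factor LOC_Os02g07840 had 38, 50.6 and 45.9 FPKM in SW, against 119.5, 121 and 92.2 FPKM in SR86 FW (log2 fold change -1.30, SE 0.17, adjusted p = 0.0123). The most abundant members of the NAC and leucine zipper families were thus lower in SW. MYB factors had 7 of 34 called higher and 4 lower, and after quantile normalization 2 higher and 6 lower (median -0.40, and -0.54 with the length trend removed). LOC_Os02g41510 had 19.7, 15.3 and 15.4 FPKM in SW, against 40.9, 72.6 and 56.3 FPKM in SR86 FW (log2 fold change -1.70, SE 0.23, adjusted p = 0.0127). The sums of MYB and of leucine zipper factors were lower in SW and did not overlap with SR86 FW. NAC calls numbered 0, 2 and 11 without SW1, SW2 and SW3 and 3, 0 and 13 without FW1, FW2 and FW3, leucine zipper calls 0, 7 and 21 without SW1, SW2 and SW3 and 9, 2 and 19 without FW1, FW2 and FW3, and MYB calls 0, 1 and 12 without SW1, SW2 and SW3 and 5, 3 and 11 without FW1, FW2 and FW3.

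Other families leaned higher or were mixed. WRKY82, LOC_Os05g14370, the most abundant of 23 WRKY factors, had 82.7, 33 and 97.4 FPKM in SW, against 4.23, 1.23 and 3.68 FPKM in SR86 FW (log2 fold change 4.32, SE 0.52, adjusted p = 0.0107), and R1 FW libraries had 9.75, 8.05 and 12.7 FPKM. WRKY11, LOC_Os01g43650, fell, with 11, 13.7 and 13.5 FPKM in SW, against 29.9, 33.6 and 37.4 FPKM in SR86 FW (log2 fold change -1.37, SE 0.16, adjusted p = 0.0107). Of the 23, 6 were called higher and 3 lower, and the sums overlapped (median 0.38, and 0.16 with the length trend removed). The bHLH factors had 7 of 24 called higher and 1 lower (median 1.18, and 1.03 with the length trend removed), and LOC_Os05g27090 had 31.6, 37 and 12.5 FPKM in SW, against 4.45, 3.13 and 1.56 FPKM in SR86 FW (log2 fold change 2.91, SE 0.48, adjusted p = 0.0171). The AP2 factors had 5 of 19 called higher and 3 lower (median 0.73, and 0.59 with the length trend removed), and LOC_Os01g54890, annotated as ethylene-responsive transcription factor 2, had 9.55, 9.57 and 11.1 FPKM in SW, against 22.7, 30.0 and 19.9 FPKM in SR86 FW (log2 fold change -1.21, SE 0.19, adjusted p = 0.016). Summed levels of the AP2 factors were lower in SW without overlap, at 262, 249 and 248 FPKM, against 270, 321 and 319 FPKM in SR86 FW. WRKY calls numbered 0, 4 and 8 without SW1, SW2 and SW3 and 3, 2 and 11 without FW1, FW2 and FW3, bHLH calls 0, 1 and 11 without SW1, SW2 and SW3 and 3, 0 and 10 without FW1, FW2 and FW3, and AP2 calls 0, 1 and 8 without SW1, SW2 and SW3 and 2, 0 and 9 without FW1, FW2 and FW3.

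Genes of cytokinin, gibberellin and ethylene had 5 of 41 called higher and 8 lower (median -0.25, and -0.51 with the length trend removed). Loci for enzymes of gibberellin were called in both directions. LOC_Os03g42130, a gibberellin 20 oxidase, an enzyme of gibberellin synthesis, had 1.18, 0.95 and 1.76 FPKM in SW, against 4.34, 5.66 and 10.3 FPKM in SR86 FW (log2 fold change -1.96, SE 0.36, adjusted p = 0.0207). Of the enzymes that inactivate gibberellin, LOC_Os05g11810 had 0.07, 0.3 and 0.18 FPKM in SW, against 9.87, 3.3 and 5.74 FPKM in SR86 FW (log2 fold change -3.21, SE 0.40, adjusted p = 0.011), and LOC_Os07g01340 had 24.7, 20.8 and 9.29 FPKM in SW, against 0.78, 1.89 and 2.24 FPKM in SR86 FW (log2 fold change 3.10, SE 0.44, adjusted p = 0.0135). R1 FW libraries had 24.9, 26.9 and 21.9 FPKM of LOC_Os05g11810, the highest of the 3 groups, and 0.05, 0.09 and 0 FPKM of LOC_Os07g01340, the lowest. LOC_Os06g14400, annotated as a homolog of ACC oxidase, the enzyme that makes ethylene, had 1.27, 2.13 and 2 FPKM in SW, against 8.27, 14.1 and 11.8 FPKM in SR86 FW (log2 fold change -2.36, SE 0.28, adjusted p = 0.0107). The most abundant of the 41, LOC_Os05g05680, is annotated as ACC oxidase itself and was not called (log2 fold change 1.24, SE 0.77, adjusted p = 0.269). It had 47.8, 131 and 82.2 FPKM in SW, against 14.9, 21.2 and 118 FPKM in SR86 FW. LOC_Os07g06130, an ethylene-insensitive protein, had 48.1, 49.2 and 63.9 FPKM in SW, against 11.4, 17.5 and 32.5 FPKM in SR86 FW (log2 fold change 1.49, SE 0.36, adjusted p = 0.0349). Hormone calls numbered 0, 4 and 14 without SW1, SW2 and SW3 and 9, 3 and 17 without FW1, FW2 and FW3.

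Ribosomal proteins were lower in SW in sum, and part of them cannot be told apart from organelle transcripts. Of 50, 4 were called higher and 16 lower (median -0.69, and -0.63 with the length trend removed, in loci 0.42 times as long as the median), and sums were 2983, 2744 and 2283 FPKM in SW, against 5021, 4735 and 3717 FPKM in SR86 FW, and 2339, 2682 and 2000 FPKM in R1 FW. The most abundant, the 60S ribosomal protein L44 locus LOC_Os07g33997, had 560.2, 491 and 385 FPKM in SW, against 733, 763 and 627 FPKM in SR86 FW, and was not called (log2 fold change -0.58, SE 0.20, adjusted p = 0.0854). The largest falls were in loci named for organelle ribosomes, such as LOC_Os10g21308 (chloroplast L33), with 1.35, 3.22 and 3.51 FPKM in SW, against 59.8, 21 and 22.8 FPKM in SR86 FW (log2 fold change -3.37, SE 0.48, adjusted p = 0.0131), and LOC_Os12g34054 (mitochondrial S3), with 2.83, 4.4 and 1.95 FPKM in SW, against 56.3, 54.8 and 12.3 FPKM in SR86 FW (log2 fold change -3.33, SE 0.60, adjusted p = 0.0203). SR86 FW3 was the lowest FW library of mitochondrial S3. Ribosomal calls numbered 1, 8 and 10 without SW1, SW2 and SW3 and 6, 3 and 24 without FW1, FW2 and FW3. Proteins of photosynthesis, markers of green tissue, were low throughout, with sums of 32.4, 45 and 36.9 FPKM in SW, against 151, 112 and 74.6 FPKM in SR86 FW, and 42, 51.2 and 32.3 FPKM in R1 FW, and 4 of 14 were called lower (median -1.23, and -1.41 with the length trend removed). Photosynthesis calls numbered 0, 1 and 3 without SW1, SW2 and SW3 and 0, 0 and 6 without FW1, FW2 and FW3.

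Features of the organelles moved in the same direction. The 54 features named LOC_Osm1 held 409.5, 568 and 244 FPKM in SW, against 2518, 2279 and 992 FPKM in SR86 FW, and 347, 541 and 222 FPKM in R1 FW, and the 103 named LOC_Osp1 held 274, 352 and 215 FPKM in SW, against 939, 783 and 406 FPKM in SR86 FW, and 229.6, 307 and 185 FPKM in R1 FW. SR86 FW1 and FW2 stood apart from the other 7 libraries in both. RSEM splits reads between transcripts that share them, and 95 tested nuclear loci had values identical in all 9 libraries to those of another feature. Of these, 6 were identical to a LOC_Osm1 feature, with 4 called lower in 2 distinct sets of values. A further 57 were identical to a LOC_Osp1 feature, with 11 called higher in 3 distinct sets and 11 called lower in 6. Calls of such nuclear copies cannot be told apart from changes in the organelle transcripts.

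Mobile elements were called in both directions. Of 158 retrotransposon loci, copied through RNA, 37 were called higher and 19 lower (median 0.38, and 0.10 with the length trend removed), and after quantile normalization 16 higher and 26 lower. LOC_Os06g09870 had 21.6, 10.2 and 26.4 FPKM in SW, against 1.43, 1.13 and 1.93 FPKM in SR86 FW (log2 fold change 3.23, SE 0.37, adjusted p = 0.0107), and LOC_Os06g37140 had 10.5, 13.9 and 10.6 FPKM in SW, against 64.7, 30.8 and 47.3 FPKM in SR86 FW (log2 fold change -1.93, SE 0.28, adjusted p = 0.0138). Of 88 DNA transposon loci, 18 were called higher and 5 lower (median 0.77, and 0.26 with the length trend removed). LOC_Os11g06570 had 5.34, 5.46 and 8.96 FPKM in SW, against 0.45, 0.1 and 0.03 FPKM in SR86 FW (log2 fold change 3.36, SE 0.34, adjusted p = 0.0087), and at most 0.07 FPKM in R1 FW. F-box proteins, which choose targets for ubiquitin ligases, had 7 of 58 called higher and 5 lower, and after quantile normalization 4 higher and 12 lower (median 0.30, 0.09 with the length trend removed and -0.02 after quantile normalization). OsFBDUF18, LOC_Os03g58764, fell in every SW library, with 2.88, 2.57 and 2.4 FPKM in SW, against 8.61, 10.2 and 9.28 FPKM in SR86 FW (log2 fold change -1.66, SE 0.19, adjusted p = 0.0107), and OsFBK16, LOC_Os06g39370, rose, with 14.1, 14 and 19.1 FPKM in SW, against 4.14, 4.27 and 2.58 FPKM in SR86 FW (log2 fold change 1.98, SE 0.24, adjusted p = 0.011). Retrotransposon calls numbered 0, 9 and 45 without SW1, SW2 and SW3 and 11, 6 and 55 without FW1, FW2 and FW3, DNA transposon calls 0, 5 and 25 without SW1, SW2 and SW3 and 5, 1 and 25 without FW1, FW2 and FW3, and F-box calls 0, 4 and 18 without SW1, SW2 and SW3 and 5, 2 and 19 without FW1, FW2 and FW3.

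Some called loci lay side by side. Runs of at least 3 consecutive tested loci called in 1 direction numbered 45, of which 31 were higher and 14 lower, with 160 loci in all, and 6 runs held at least 5. Copies that lie side by side can share reads, so the members of a run are not independent. The longest held 7 loci each. On chromosome 8, LOC_Os08g08990 to LOC_Os08g09060, of which 6 are annotated as cupin proteins, held 712, 927 and 868 FPKM in SW, against 1925, 2388 and 2713 FPKM in SR86 FW, and 4176, 4415 and 3884 FPKM in R1 FW, and their log2 fold changes lay between -2.26 and -1.03. On chromosome 10, LOC_Os10g38270 to LOC_Os10g38360, with 4 glutathione S-transferase loci and 2 loci whose values were identical to another feature, 1 of them a LOC_Osp1 feature, held 49, 77.7 and 102 FPKM in SW, against 457, 459 and 194 FPKM in SR86 FW. On chromosome 1, LOC_Os01g72130 to LOC_Os01g72170, 5 glutathione S-transferases, held 183, 207 and 222 FPKM in SW, against 719, 1031 and 706 FPKM in SR86 FW. All loci of these 3 runs were called lower, and the sums of SW and SR86 FW did not overlap.

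Runs that rose held other kinds of gene. On chromosome 6, LOC_Os06g18830 to LOC_Os06g18960, with 3 cadmium tolerance factors among 5 loci, held 46.7, 40.1 and 66.2 FPKM in SW, against 22, 18.3 and 17.9 FPKM in SR86 FW. On chromosome 11, LOC_Os11g43770 to LOC_Os11g43820, 5 loci, held 59.4, 34.2 and 68.5 FPKM in SW, against 10.7, 11.5 and 12.5 FPKM in SR86 FW, most of it from the leucine-rich repeat locus LOC_Os11g43770, with log2 fold change 4.02. On chromosome 9, LOC_Os09g39070 to LOC_Os09g39120, 3 cysteine proteases, held 77.5, 85.2 and 62.5 FPKM in SW, against 1.81, 12.2 and 10.5 FPKM in SR86 FW. The number of runs was 0 without SW1, 4 without SW2, 53 without SW3, 6 without FW1, 2 without FW2 and 74 without FW3.

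Windows of 20 consecutive tested loci, chosen after values were seen, held at most 8 loci called at over 4-fold, and 3 stretches reached that. On chromosome 2, LOC_Os02g37254 to LOC_Os02g37590 held 21 tested loci, 8 called higher and 1 lower. LOC_Os02g37540, an expressed protein of this stretch, had 15.9, 13.9 and 17.3 FPKM in SW, against 0.13, 0.27 and 0.66 FPKM in SR86 FW (log2 fold change 4.29, SE 0.28, adjusted p = 0.00577), while LOC_Os02g37420 of the same stretch had 154, 150.3 and 153 FPKM in SW, against 193, 182 and 189 FPKM in SR86 FW and was not called. On chromosome 10, LOC_Os10g31330 to LOC_Os10g31770 held 26 tested loci, 9 higher and none lower. Of its glycine-rich wall proteins, LOC_Os10g31690 had 74.5, 62.2 and 34.2 FPKM in SW, against 8.18, 3.59 and 5.98 FPKM in SR86 FW (log2 fold change 3.16, SE 0.37, adjusted p = 0.0107), while LOC_Os10g31660 had 236, 213 and 32.6 FPKM in SW, against 298, 231 and 136 FPKM in SR86 FW and was not called. On chromosome 12, LOC_Os12g33922 to LOC_Os12g34148 held 23 tested loci, none higher and 12 lower, and 6 of the 23 had values identical to an organelle feature. Called and uncalled loci thus lay next to each other in each stretch. The share called per chromosome was 11.6% to 14.3%.

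**Figure D5:**
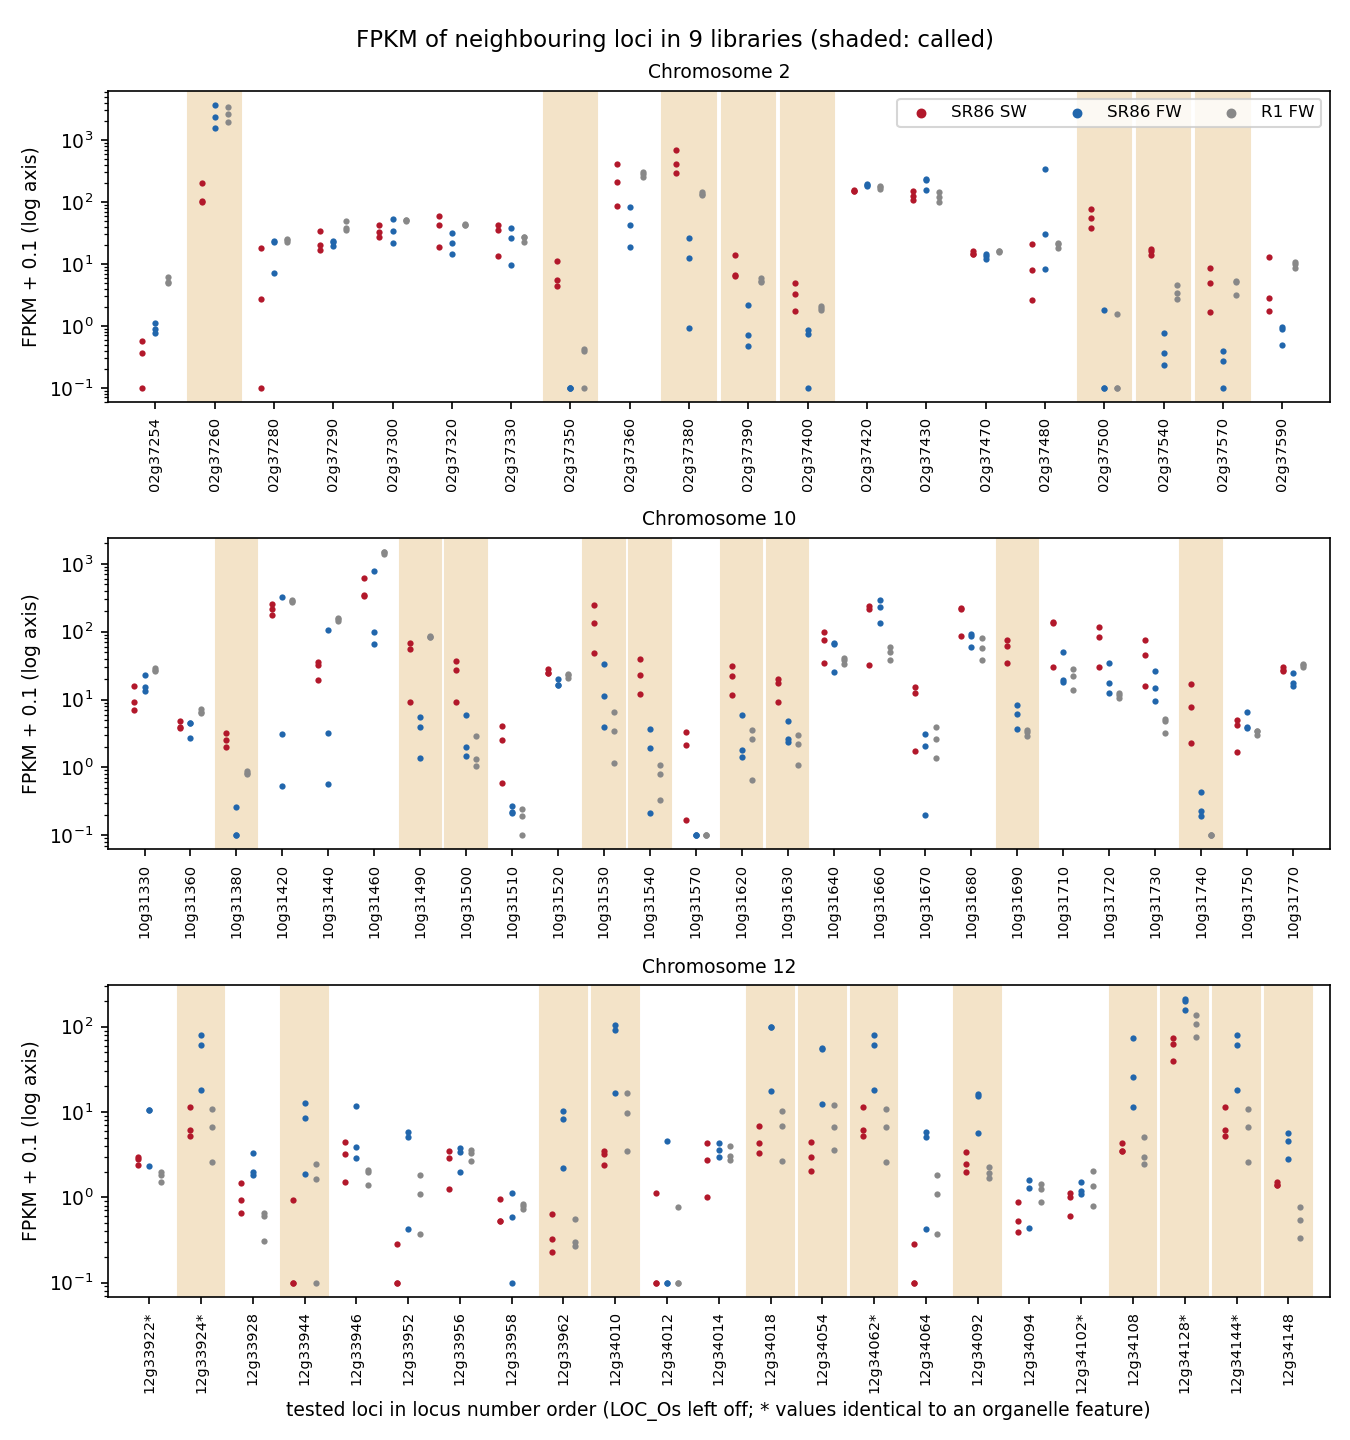
FPKM (plus 0.1, log axis) of consecutive tested loci in 3 stretches on chromosomes 2, 10 and 12, in the order of their locus numbers; each point is a library of SW, SR86 FW or R1 FW, shading marks called loci, and asterisks mark loci with values identical to an organelle feature, with 1 tested locus of chromosome 2 left out. On chromosomes 2 and 10 the called loci stand higher in SW, with 1 exception on chromosome 2, and on chromosome 12 all 12 called loci stand lower in SW.

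Loci with no annotation made up 17623 of those tested, and 610 of them were called, 542 higher (3.08%) and 68 lower (0.386%). The list of loci higher in SW was held only in part and that of loci lower in SW whole, so nothing is read from this split. The 3 most abundant of those called are named here, chosen after their values were seen. LOC_Os06g46770 had 1043, 1067 and 1140 FPKM in SW, against 2255, 2591 and 1801 FPKM in SR86 FW (log2 fold change -1.02, SE 0.23, adjusted p = 0.0316). LOC_Os04g37780 had 198, 332 and 459.8 FPKM in SW, against 684, 1117 and 663 FPKM in SR86 FW (log2 fold change -1.36, SE 0.36, adjusted p = 0.0425), and LOC_Os09g26420 had 564, 344 and 332 FPKM in SW, against 147, 176 and 191 FPKM in SR86 FW (log2 fold change 1.23, SE 0.24, adjusted p = 0.0235). R1 FW libraries had 1618, 1633 and 1598 FPKM of LOC_Os06g46770, 117, 141 and 104 FPKM of LOC_Os04g37780 and 125, 161 and 94.4 FPKM of LOC_Os09g26420. What they encode was not given in the sources used here.

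The 52 loci called with all libraries and with each library left out comprised 19 higher and 33 lower in SW, and 50 of them carried an annotation. Those of them named from here on were chosen after their values were seen. LOC_Os03g49260, a lipoxygenase, which oxidises fatty acids at the start of several pathways, had 28.7, 30.6 and 36.9 FPKM in SW, against 5.16, 4.6 and 3.73 FPKM in SR86 FW (log2 fold change 2.71, SE 0.18, adjusted p = 0.00577), and 9.7, 10.3 and 9.02 FPKM in R1 FW. LOC_Os06g11290, annotated as a 12-oxophytodienoate reductase, an enzyme type of jasmonate synthesis, had 8.4, 4 and 4.87 FPKM in SW, against 25.8, 26.7 and 35 FPKM in SR86 FW (log2 fold change -2.30, SE 0.28, adjusted p = 0.011), and R1 FW libraries were above SR86 FW, at 38.2, 36 and 42.1 FPKM. LOC_Os02g54880, a cytochrome c oxidase subunit, had 77.1, 53.7 and 44 FPKM in SW, against 3.25, 3.43 and 6.91 FPKM in SR86 FW (log2 fold change 3.58, SE 0.33, adjusted p = 0.00854). LOC_Os11g32260, an alpha-mannosidase that trims sugars from glycoproteins, had 48.2, 67.6 and 67.5 FPKM in SW, against 18.2, 15 and 16.2 FPKM in SR86 FW (log2 fold change 1.85, SE 0.18, adjusted p = 0.0087). In each of these 4 loci the SW libraries were close to each other compared with their distance from SR86 FW.

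Among the 33 that fell, LOC_Os05g41460, a cysteine proteinase inhibitor, had 125, 116 and 135 FPKM in SW, against 674, 767 and 523 FPKM in SR86 FW (log2 fold change -2.37, SE 0.18, adjusted p = 0.00661). RALFL46, LOC_Os12g12000, of the RALF peptides that raise the pH outside cells, had 37.6, 25.8 and 31.2 FPKM in SW, against 238, 208 and 155 FPKM in SR86 FW (log2 fold change -2.64, SE 0.21, adjusted p = 0.00673). LOC_Os06g02490, an acyl-CoA binding protein, had 24.9, 24 and 22.5 FPKM in SW, against 89.2, 132 and 119 FPKM in SR86 FW (log2 fold change -2.21, SE 0.17, adjusted p = 0.00661), with R1 FW libraries at 16.4, 18.9 and 19 FPKM, below SW. OsMADS14, LOC_Os03g54160, of a family of transcription factors best known from flowers, had 10.6, 11.2 and 13.3 FPKM in SW, against 34.9, 42.5 and 41.7 FPKM in SR86 FW (log2 fold change -1.72, SE 0.16, adjusted p = 0.00854), with R1 FW libraries at 71.9, 74.3 and 67.9 FPKM, above SR86 FW. LOC_Os09g20900, of a family responsive to low oxygen, had 17.8, 15.3 and 13.5 FPKM in SW, against 49.8, 42.5 and 46.8 FPKM in SR86 FW (log2 fold change -1.55, SE 0.15, adjusted p = 0.0087). R1 FW thus lay on the side of SW for some of these loci and beyond SR86 FW for others. Glutathione S-transferases among the 33 were LOC_Os10g38350, LOC_Os01g72160, LOC_Os01g72170 and LOC_Os10g38189, with log2 fold changes between -3.57 and -1.97.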

How the data were processed

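The values analysed were FPKM per locus, rounded to 2 decimals, as deposited by the authors. They trimmed reads of stranded mRNA libraries with Trimmomatic, aligned them to rice transcripts of the MSU6 annotation with Bowtie2 and estimated levels with RSEM, which splits reads shared between transcripts. The submitters' processing notes also name CASAVA 1.8. No counts were used here, so the depth of a library is known only relative to SR86 FW1, from the smallest steps of its values. Groups were taken from the sample labels. A sentence of the study's methods places the cultivars and waters otherwise. The labels give no salt content.

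Differences of log2(FPKM + 0.5) were tested with limma 3.58.1 (trended variances, two-sided) under R 4.3.3 on the 23581 nuclear loci, in the 6 libraries of SR86, with p-values adjusted by Benjamini and Hochberg over all of them. The pseudocount of 0.5 and the log2 scale were applied here to the deposited values. Sums over groups were compared with an exact two-sided permutation test under Python 3.11.15 and scipy 1.17.1, whose smallest p for 3 against 3 libraries is 0.1. The labels do not say that replicates came from separate plantings, and p-values measure the spread between these samples. The fit was tested on simulated data.

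Most loci named were chosen from the 10 largest rises and 10 largest falls among annotated called loci with no overlap of libraries and a higher group mean of at least 5 FPKM, up to 3 rises and 3 falls of each group by the same conditions, the most abundant locus of each group, the 10 most abundant called loci, and up to 15 loci called with each library left out, and not all that qualified are printed. CESA1, CESA5, OsIAA13, the dehydrins, the group 3 LEA protein, kinds of protein within groups, runs of neighbours, windows, loci with no annotation and the other loci called with each library left out were chosen after their values were seen. The 10 largest rises and 10 largest falls were taken outside the 8 families left out of the groups. Groups and lists were chosen with earlier results of these data known. Relative lengths came from the ratio of per-million values in the study's supplementary lists to the deposited FPKM. Of the 4 lists used for annotation, 2 were held only in part. Columns of the authors' own comparisons in those lists were not used. Alternatives were other pseudocounts, filters and scalings, a fit of all 9 libraries, a replicate block and each library left out. A locus of chromosome 2 is not reported here.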

Additional observations from a re-analysis of the deposited data

How the results depend on the processing

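Calls depended on single libraries and on the filter and scaling. With 1 library left out, 58 to 3756 loci were called, 22 to 2561 higher and 36 to 1195 lower in SW, 7 to 594 of them in the annotation groups, and 0 to 74 runs of neighbours were found. Sums of 23 to 30 of the 39 groups did not overlap. Without a filter on low values 1788 loci were called, 1107 of them higher, with 322 in the groups and 9 runs. With the R1 libraries in the fit there were 92 runs. After quantile normalization 1153 loci were called higher and 1352 lower. Of 3631 alternative values of single loci, 5 changed sign. Most of these loci were chosen for large changes in the same libraries, so a stable sign was largely set by that choice. LOC_Os02g41650 was between -0.02 without SR86 FW2 and 0.42 without FW3, and at -0.25 with the length trend removed. LOC_Os10g40720 was between -0.75 without FW1 and 0.87 without FW2, at -0.02 without SW1 and at -0.03 with the length trend removed. Medians turned sign for F-box proteins (-0.02) and terpene synthases (-0.15) after quantile normalization, for cytochromes P450 with a pseudocount of 0.1 (0.02) or a minimum of 1 FPKM (0.13), and for terpene synthases without FW1 (-0.42) or SW3 (-0.18). The cause was not tested.

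Deviations of libraries with the same replicate number had correlations across loci of -0.06, 0.00 and 0.15, against -0.18 to 0.21 for other pairs. With only 3 libraries per group, these values cannot show whether the numbers pair the samples. A fit with the replicate number as a block called 2071 loci, 1316 higher and 755 lower, with 412 in the groups and 30 runs, and 1910 of the calls were shared with the fit without it. The depth of the libraries is not known in reads, and the smallest differences it could show were not computed.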

Other observations

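Other kinds of annotated protein, chosen after their values were seen, were measured outside the groups above. All 20 cupin domain proteins, a family of barrel-shaped proteins that includes germins, had a negative log2 fold change and 15 were called lower (median -1.48, and -1.45 with the length trend removed), with sums of 851, 1119 and 1150 FPKM in SW, against 2694, 3262 and 3755 FPKM in SR86 FW, and 5666, 5872 and 5392 FPKM in R1 FW. Of 9 RALF peptides, 5 were called lower and none higher, with sums of 841, 1173 and 1762 FPKM in SW, against 3002, 4059 and 2500 FPKM in SR86 FW, and 6072, 6526 and 5588 FPKM in R1 FW. R1 FW was highest for both kinds. Of 13 EF hand proteins, which bind calcium, 6 were called lower and none higher, with sums of 279, 292 and 326 FPKM in SW, against 819, 759 and 543 FPKM in SR86 FW, and 344, 358 and 329 FPKM in R1 FW, near SW. Of 8 VQ domain proteins, 6 were called lower (median -1.28, and -1.25 with the length trend removed).

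Kinds that were higher included 8 annotated as cysteine proteases, of which 6 were called higher, with sums of 231, 206 and 182 FPKM in SW, against 22.5, 57.5 and 50.7 FPKM in SR86 FW, and 108, 96.6 and 112 FPKM in R1 FW. Of 21 disease resistance proteins of the RPM1 and RGA kinds, which sense pathogens inside the cell, 11 were called higher and none lower (median 1.24, and 0.75 with the length trend removed). Of 13 HEAT repeat proteins, 11 were called higher (median 1.67, and 0.94 with the length trend removed).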
